A study of Mus musculus with 25 samples.

Results

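Glial and vascular transcripts were followed through an immunoprecipitation (IP) that was designed to leave them behind. The set holds 37 of the 50559 genes in the count table, chosen by name as markers of 4 cell classes other than neurons. These classes were the oligodendrocyte lineage (10 genes), astrocytes (10), microglia (9), and endothelial and vascular cells (8). The tissue was spinal cord, and the mice were C57BL/6J males, 6 mo old. Controls were *ChAT-Cre;RiboTag fx/+*, and *ChAT-BKO* mice were *ChAT-Cre;RiboTag fx/+;Bmal1 fx/fx* and lack the clock gene *Bmal1* in cholinergic cells. Both genotypes carry Cre under *ChAT* control and 1 RiboTag allele, and controls carry no floxed *Bmal1* allele. Each genotype was collected at ZT8, in the light period, and at ZT20, in the dark period (n = 6 mice per condition, 1 spinal cord per homogenate). The 24 IP libraries were set beside 1 pooled input, RNA from spun homogenate of the whole spinal cord of both genotypes taken before the IP. Its label names cholinergic neurons as the cell type, as for the IP libraries, whereas the methods of the study give the whole cord, and it is read here as the latter.

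RiboTag mice carry a ribosomal protein that gains a hemagglutinin (HA) tag in cells that express Cre, so an antibody against HA pulls down ribosomes of those cells together with the mRNA on them. Oligodendrocytes wrap axons in myelin, astrocytes clear glutamate and potassium and contact vessels, microglia are the resident phagocytes of the cord, and endothelial cells form the blood-spinal cord barrier. None of these classes is known for *Chat* expression, and their mRNA in an IP from a *ChAT-Cre* cord is the usual measure of what the pull-down carried along from other cells. In such bulk samples, fewer cells of a type and less RNA per cell cannot be told apart.

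The deposited values were expected read counts per gene. The input held 7.40 M counts and the IP libraries 4.04 to 31.7 M, so that a count of 0 allows up to 0.743 CPM (counts per 1e6 counts of the library) in the shallowest IP library (3 counts, counting error only). *Arntl*, the symbol of *Bmal1* in the table, was lower in *ChAT-BKO* libraries by log2 -1.64 at ZT8 (SE 0.16, adjusted p = 1.56e-05 from edgeR) and by log2 -2.08 at ZT20 (SE 0.16, adjusted p = 1.98e-07), as the labels give it. All 60 pairs of libraries within a condition differed by more than counting error. A few libraries stood apart for these genes. *ChAT-BKO* replicate 2 at ZT20, with 7.43 M counts, had the highest ratio to the input of all 24 libraries for 14 of 36 members (*Aldoart1* was left out of this count), and replicate 6 of the same condition, with 5.26 M counts, had the lowest for 8 of 36. The libraries numbered 2 also held the highest oligodendrocyte class median in each of the 4 conditions, and for *Mobp*, *Cnp*, *Cldn11*, *Opalin*, *Slc1a2*, and *Pecam1*, 6 of 37 members, the highest level in each of them, as for 0.198% of all genes tested. What libraries of 1 number share is not given in the sources used here.

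Glial and vascular transcripts were lower in the HA IP than in the input in nearly every case. As a measure, the CPM of each IP library was divided by that of the input on a log2 scale (prior of 0.5 counts, CPM on the total count), and a gene was called depleted when all 24 libraries were below the input and the median log2 ratio was at or under -1. By this rule 35 of the 37 members were depleted, all but *S100b* and *Aldoart1*, while the rule takes 37.4% of the 14971 genes with at least 10 input counts. Many genes were depleted, and the members lay toward the low end of them, since 29 of 37 lay at or under a log2 ratio of -3, where 8.74% of all genes lay, and 16 of 37 at or under -4, where 2.90% of all genes lay. The median of all genes was -0.55, and their lowest 5% began at -3.58. Over the 37 genes together, the summed level was 23605 CPM in the input, or 2.36% of its counts, and 2314 CPM (median; 2125 to 2994) in the IP libraries. That left 9.80% of the input level in the IP as a median, with 9.00% in the lowest library and 12.7% in the highest. Because there was only 1 input library, no error could be given for its side of the ratio, and the ratios were not tested.

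**Figure D1:**
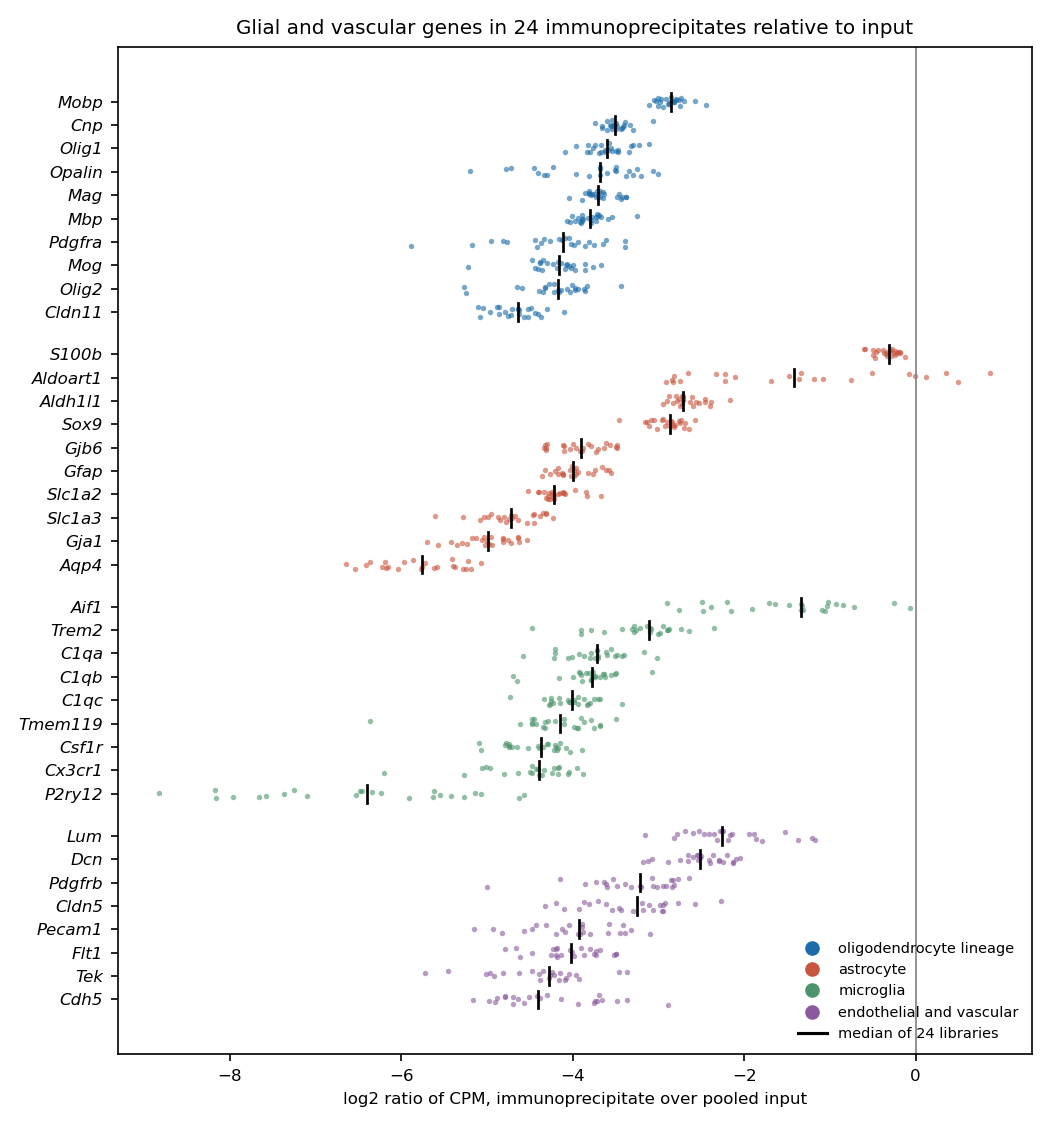
Log2 ratio of CPM in the IP over CPM in the pooled input (horizontal axis) for each of the 37 genes, with 1 point per IP library and a bar at the median of 24. The genes are grouped by cell class and ordered by median, and *S100b* sits at -0.31 while the 35 depleted genes run from -1.33 (*Aif1*) to -6.40 (*P2ry12*).

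Marker lists for other cells placed these values. All 7 cholinergic neuron markers were above the input in all 24 libraries with a median log2 ratio of at least 1, where 7.39% of all genes were called by the mirrored rule. Among them *Chat*, which makes acetylcholine, had a median log2 ratio of 2.36, the vesicular transporter *Slc18a3* 3.48, and the choline transporter *Slc5a7* 1.85. All 5 excitatory neuron markers were depleted, from -3.85 (*Slc17a7*) to -1.45 (*Slc17a8*), and 4 of 5 inhibitory ones, with a median of -1.74. Further markers of the 4 classes, listed separately from the members, lay at medians of -4.25 for the oligodendrocyte lineage (12 of 12 depleted), -3.79 for astrocytes (12 of 12), -3.77 for microglia and macrophages (12 of 12), and -3.82 for endothelium (11 of 12, all but *Itm2a*). Mural cell markers had a median of -3.69 (8 of 8 depleted), fibroblast and meningeal markers -3.30 (8 of 8), Schwann cell markers -3.83 (5 of 6, all but *Pmp22* at -0.88), red blood cell markers -2.85 (5 of 5), ependymal markers -2.89 (4 of 6), and skeletal muscle markers -3.68 (4 of 8).

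**Figure D2:**
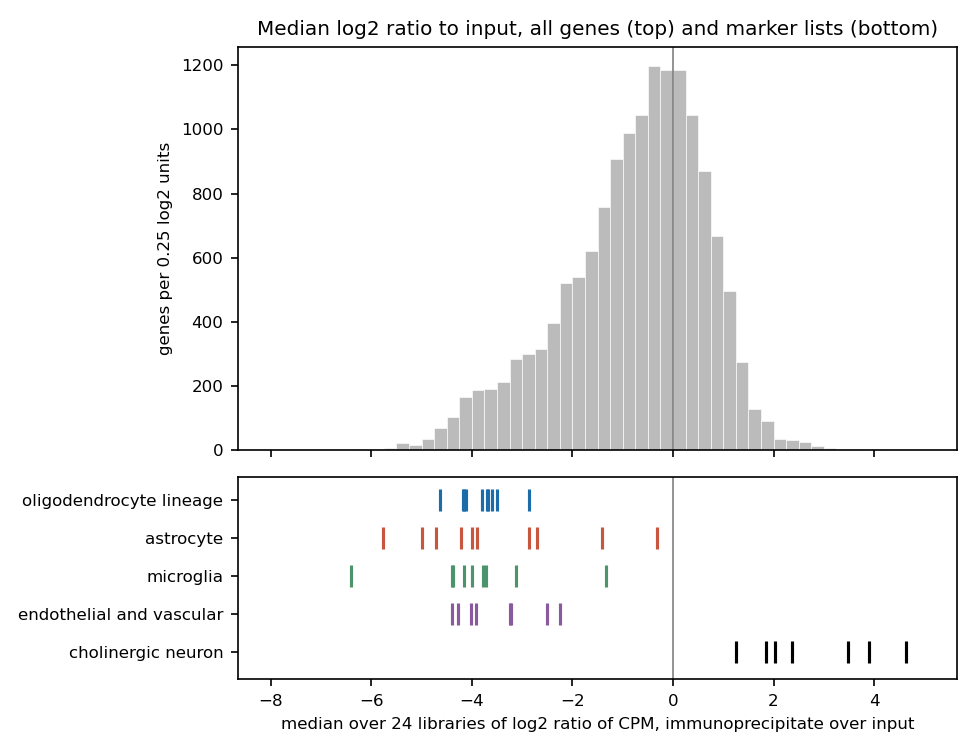
Top, number of genes per 0.25 log2 units of the median log2 ratio to input, for 14971 genes. Bottom, the median log2 ratio of each member by class and of 7 cholinergic markers, 1 tick per gene, with members from -6.40 to -0.31 and cholinergic markers from 1.25 to 4.64.

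Oligodendrocyte lineage genes were all depleted, 10 of 10. The class median over its members was -3.81 (SD 0.18 over 24 libraries), with the lowest library at -4.15 and the highest at -3.37. *Mbp*, the myelin basic protein, supplied 97973 of the input counts and 71.5% of the class's summed CPM there, a share of counts that also depends on transcript length. It lay at a median log2 ratio of -3.80 (SD 0.18, -4.06 to -3.25), or 14.0-fold below the input. *Mobp*, another myelin protein, was the least depleted member in 24 of 24 libraries, with a median of -2.86 (SD 0.15). *Cldn11*, a tight junction protein between myelin layers, was the most depleted by median at -4.64 (SD 0.26) and the lowest member in 17 of 24 libraries. The other structural myelin genes lay between them, with *Cnp* at -3.51, *Opalin* at -3.68, *Mag* at -3.70, and *Mog* at -4.16. The lineage transcription factors *Olig1* and *Olig2* were at -3.60 and -4.17, and *Pdgfra*, the growth factor receptor of oligodendrocyte precursors, at -4.11.

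In the IP libraries themselves, levels were compared between conditions on TMM-scaled CPM. *Mbp* had a median of 926 CPM (829.8 to 1003) in controls at ZT8, 914 CPM (802 to 1122) in *ChAT-BKO* libraries at ZT8, 975 CPM (809 to 1034) in controls at ZT20, and 966 CPM (891 to 1370) in *ChAT-BKO* libraries at ZT20. The highest of these, 1370 CPM, was *ChAT-BKO* replicate 2 at ZT20, and the 4 conditions overlapped. *Mobp* had medians of 327 CPM (296 to 360.1) and 303 CPM (281 to 361) at ZT8 and 331 CPM (288 to 442) and 342 CPM (310.0 to 393) at ZT20, controls first. *Cldn11* had medians of 13.5 CPM (11.8 to 17.4) and 15.4 CPM (11.2 to 18.5) at ZT8 and 16.7 CPM (15.7 to 20.0) and 15.9 CPM (11.2 to 22.3) at ZT20, again controls first. For both genes the ranges of all 4 conditions overlapped.

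Astrocyte genes held the widest spread of the 4 classes and the clearest exception. The class median over members was -3.96 (SD 0.20, -4.29 to -3.55), and 8 of 10 members were depleted. *Aqp4*, the water channel of astrocyte endfeet, was lowest in 24 of 24 libraries with a median of -5.76 (SD 0.47), or 54.3-fold below the input. The gap junction gene *Gja1* was at -4.99, the glutamate transporters *Slc1a3* and *Slc1a2* at -4.72 and -4.22, and a second gap junction gene, *Gjb6*, at -3.91. *Gfap*, the intermediate filament of astrocytes, kept 6.26% of its input level, with libraries from -4.35 to -3.55 on the log2 scale. The transcription factor *Sox9* at -2.86 and the folate enzyme *Aldh1l1* at -2.71 were depleted least among the 8. The study checked pull-downs of WT *ChAT-Cre;RiboTag fx/+* mice by PCR and, separately, by normalized counts from sequencing. Its PCR primers included *Gfap*, and the forward primer is shown because it marks the stretch of the astrocyte transcript that such a check reads. It lies in the coding part of exon 6 of 9 of *Gfap-201*, at chr11:102893048-102893070 of GRCm38 on the minus strand.
Gfap F: cacctacaggaaattgctggagg

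*S100b*, a calcium-binding protein used as an astrocyte marker and also known from oligodendrocytes and some neurons, was close to its input level. Its median log2 ratio was -0.31 (SD 0.13, -0.60 to -0.12) with 5525 input counts, and it was higher than every other astrocyte member except *Aldoart1*, which was not compared, in 24 of 24 libraries, by 1.95 to 2.61 log2 units. It was below the input in 24 of 24 libraries on total counts, whereas with TMM scaling over the input and IP libraries, which moved the median of all genes by 0.50, its median was 0.21 and 20 of 24 libraries were above the input. *S100b* made up 16.6% of the summed CPM of the class in the input and 74.7% (66.4 to 78.8%) in the IP, shares of counts that depend on transcript length as well. By condition its level had medians of 601 CPM (493 to 691) in controls and 570.5 CPM (521 to 634) in *ChAT-BKO* libraries at ZT8, and 619.7 CPM (548 to 656) and 589 CPM (487 to 669) at ZT20. The ranges of the 4 conditions overlapped. The gene spans chr10:76253853-76261159 on the plus strand of GRCm38. Among the lists of other non-cholinergic markers, 3 genes lay as near to 0, the ependymal genes *Cfap126* (-0.13) and *Foxj1* (0.18) and the endothelial gene *Itm2a* (-0.31), and the inhibitory neuron gene *Gad1* was next at -0.39. *Cfap126*, *Itm2a*, and *Gad1* also turned positive with TMM over the input, and *Foxj1* was already above 0.

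*Aldoart1*, a retrocopy of *Aldoa* counted among the astrocyte genes, could not be placed. It had 1 count in the input and 14 in all IP libraries together, with 13 of 24 at 0, and the log2 ratio of the summed counts was -1.55 with an exact 95% interval from -4.27 to 3.85 for counting error only. Reads of the parent gene may also be split with such a copy, so its values carry little.

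The other astrocyte genes were compared in the same way. *Slc1a2* had medians of 87.5 CPM (75.0 to 99.8) in controls and 91.0 CPM (86.5 to 106) in *ChAT-BKO* libraries at ZT8, and 96.3 CPM (81.1 to 100.4) and 104 CPM (80.0 to 130.5) at ZT20. *Gfap* had medians of 76.0 CPM (61.2 to 102) and 76.2 CPM (58.7 to 103) at ZT8, and 70.4 CPM (66.6 to 91.5) and 78.2 CPM (68.1 to 98.2) at ZT20, controls first. *Aqp4* had medians of 5.88 CPM (3.46 to 7.52) and 4.33 CPM (3.90 to 8.64) at ZT8, and 5.77 CPM (4.72 to 7.70) and 5.51 CPM (2.85 to 7.93) at ZT20. All 3 overlapped between every pair of conditions.

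Microglial genes were depleted in 9 of 9 cases, with a class median of -4.01 (SD 0.24, -4.48 to -3.43). The purinergic receptor *P2ry12*, a marker of resting microglia, was the most depleted of the 37 at -6.40, but with 135 input counts and 5 IP libraries at 0 its per-library ratio had an SD of 1.21. From the summed counts its log2 ratio was -6.27 (exact 95% interval -6.70 to -5.85, counting error only). The fractalkine receptor *Cx3cr1* was at -4.40, the growth factor receptor *Csf1r*, on which microglia depend, at -4.37, and *Tmem119* at -4.15. The complement genes *C1qc*, *C1qb*, and *C1qa*, which encode the 3 chains of C1q, stood together at -4.01, -3.78, and -3.71, and the lipid receptor *Trem2* at -3.11. *Aif1*, which encodes IBA1, was highest at -1.33 (SD 0.76), though it had 18 input counts, and the interval from its summed counts ran from -2.09 to -0.63 around -1.40. With TMM over the input its median was -0.83 and 2 of 24 libraries were above the input, so that it no longer met the rule, which 34 of 37 members then did.

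These levels were low in every condition. *Csf1r* had medians of 4.28 CPM (2.56 to 4.71) in controls and 4.33 CPM (3.22 to 5.12) in *ChAT-BKO* libraries at ZT8, and 3.29 CPM (2.53 to 4.79) and 4.40 CPM (3.07 to 5.75) at ZT20. *C1qa* had medians of 4.30 CPM (2.34 to 5.19) and 4.29 CPM (3.13 to 5.53) at ZT8, and 4.80 CPM (3.45 to 6.52) and 4.60 CPM (3.07 to 7.01) at ZT20. Both genes overlapped between all conditions. *Aif1* had medians of 1.07 CPM (0.292 to 1.32), 1.20 CPM (0.435 to 1.95), 0.805 CPM (0.407 to 1.13), and 0.517 CPM (0.264 to 2.30) in the same order. *P2ry12* had medians between 0.191 CPM in controls at ZT20 and 0.243 CPM in *ChAT-BKO* libraries at ZT20, with single libraries from 0 to 0.734 CPM. At these depths, differences in *P2ry12* were not detectable.

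Endothelial and vascular genes were depleted in 8 of 8 cases but somewhat less than the glial classes, with a class median of -3.55 (SD 0.34, -4.12 to -2.95). The lowest members were endothelial genes, the adhesion gene *Cdh5* at -4.40, the angiopoietin receptor *Tek* at -4.27, the VEGF receptor *Flt1* at -4.02, and *Pecam1* at -3.93. The barrier tight junction gene *Cldn5*, also endothelial, was higher at -3.25, close to *Pdgfrb*, a pericyte receptor, at -3.21. The proteoglycan genes of fibroblasts, *Dcn* and *Lum*, were depleted least, at -2.51 (SD 0.32) and -2.25 (SD 0.51), and *Lum* rests on 31 input counts. Without *Pdgfrb*, *Dcn*, and *Lum* the class median was -3.97, within the values of the glial classes.

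The order of the classes was not fixed. The vascular median was above the oligodendrocyte median in 16 of 24 libraries, above the astrocyte median in 18, and above the microglial median in 21. The oligodendrocyte median was above the astrocyte and the microglial median in 20 of 24 libraries each, and the astrocyte median was above the microglial in 16. The medians over libraries were -3.55 for vascular genes, -3.81 for the oligodendrocyte lineage, -3.96 for astrocytes, and -4.01 for microglia, with SDs from 0.18 to 0.34, and the ranges of all 4 overlapped.

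As a share of the input, the summed level left in the IP was 7.89% (median; 6.97 to 11.2%) for the oligodendrocyte lineage, 18.1% (15.9 to 19.3%) for astrocytes, 5.95% (4.69 to 8.59%) for microglia, and 11.0% (7.15 to 14.3%) for endothelial and vascular genes. Astrocytes stood out through 1 gene, as the class without *S100b* was at 5.43% (4.54 to 7.46%), a value computed after the data were seen. *Mbp* did not act this way, as the oligodendrocyte class without it was at 10.2% (9.21 to 13.1%).

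**Figure D3:**
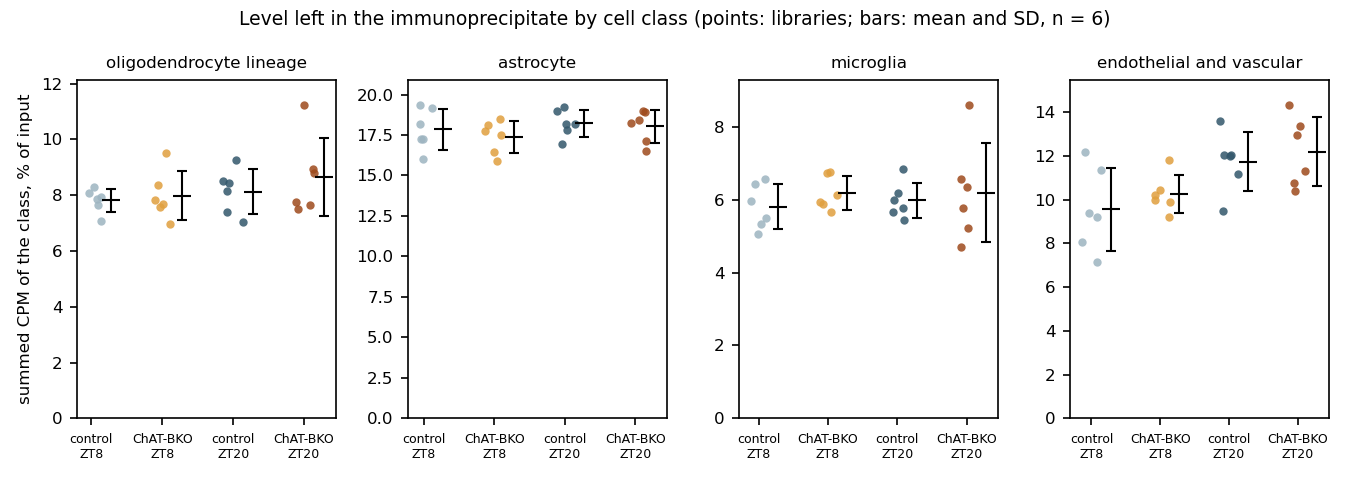
Summed CPM of each class in the IP as a percent of the same sum in the input (vertical axis), by genotype and time, with 1 point per library and the mean with SD (n = 6). The conditions overlap in every class, and the vascular class has mean levels of 9.55% and 10.3% at ZT8 and 11.7% and 12.2% at ZT20.

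By condition, the oligodendrocyte class was at 7.81% ± 0.419 (SD, n = 6) in controls and 7.99% ± 0.865 in *ChAT-BKO* libraries at ZT8, and at 8.12% ± 0.809 and 8.64% ± 1.40 at ZT20. Astrocytes without *S100b* were at 5.36% ± 0.590 and 5.53% ± 0.666 at ZT8, and at 5.56% ± 0.455 and 6.02% ± 0.972 at ZT20. Microglia were at 5.81% ± 0.617 and 6.18% ± 0.461 at ZT8, and at 5.98% ± 0.491 and 6.19% ± 1.37 at ZT20. In each of these classes the conditions overlapped, and their means lay within the spread of single libraries. The vascular class was at 9.55% ± 1.90 in controls and 10.3% ± 0.863 in *ChAT-BKO* libraries at ZT8, and at 11.7% ± 1.35 and 12.2% ± 1.59 at ZT20, with overlapping ranges. No test was run on these sums.

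Whether the residual level followed genotype was asked gene by gene with edgeR's quasi-likelihood test and Benjamini-Hochberg adjustment over 21738 genes, and no member was called at an adjusted p under 0.05. At ZT8, 0 of 37 members were called (0.184% of all genes were), 1 had an unadjusted p under 0.05 (4.83% of all genes), and DESeq2, which called 0.322% of all genes, called 0. The median log2 fold change of the members, *ChAT-BKO* over control, was 0.05 beside 0.00 for all genes. At ZT20, 0 of 37 were called (0.23% of all genes), 1 had an unadjusted p under 0.05 (6.28% of all genes), and DESeq2, at 0.419% of all genes, called 0. Here the members had a median log2 fold change of 0.02, which was -0.05 without *ChAT-BKO* replicate 2, beside -0.01 for all genes. The difference between the 2 genotype effects called 0 members, with 0% of all genes called by edgeR and by DESeq2, and 0 members had an unadjusted p under 0.05, against 3.90% of all genes. Apart from *Aldoart1*, the log2 fold changes ran from -0.62 (*Lum*) to 0.50 (*Tek*) at ZT8 and from -0.43 (*Pdgfra*) to 0.46 (*P2ry12*) at ZT20.

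Class by class, the median genotype differences were small. On the log2 scale, the oligodendrocyte genes had median genotype differences of 0.07 (ZT8) and -0.03 (ZT20), and the astrocyte genes of -0.02 and 0.07. Microglial genes had medians of 0.09 and 0.01, and vascular genes of -0.02 and 0.06. *Mbp* differed by 0.03 (SE 0.07) at ZT8 and 0.13 (SE 0.09) at ZT20, and *S100b* by -0.07 (SE 0.07) at both time points, with adjusted p of 1 and 0.872 for *Mbp* and of 1 and 0.914 for *S100b* from edgeR.

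*Gjb6*, which encodes connexin 30 of astrocyte gap junctions, was the 1 member whose genotypes did not overlap. At ZT8 its level in controls was 4.74 CPM (median; 4.53 to 5.43), and in *ChAT-BKO* libraries it was 5.95 CPM (5.50 to 7.06). All 6 *ChAT-BKO* libraries were above all 6 controls, and 0.57% of all genes had groups that do not overlap in this comparison. The log2 fold change was 0.34 (SE 0.11), with an adjusted p of 0.771 from edgeR and 0.907 from DESeq2. At ZT20 *Gjb6* was at 6.51 CPM (5.40 to 8.27) in controls and 7.54 CPM (6.08 to 8.29) in *ChAT-BKO* libraries, which overlapped (log2 fold change 0.13, SE 0.13). At ZT20 the genotypes were without overlap for 0 members and for 0.511% of all genes.

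*Dcn*, the fibroblast proteoglycan, was the member with an unadjusted p under 0.05 at ZT20. Its level was 12.3 CPM (10.6 to 13.3) in controls and 14.1 CPM (12.3 to 16.9) in *ChAT-BKO* libraries, and the groups overlapped (a difference of log2 0.29 with SE 0.09, for which edgeR gave an adjusted p of 0.504). At ZT8 *Dcn* was at 9.08 CPM (7.80 to 16.4) in controls and 13.3 CPM (11.4 to 15.9) in *ChAT-BKO* libraries. Over both time points, a comparison added after the data were seen, 0 of 37 members were called by edgeR (0.741% of all genes), 4 had an unadjusted p under 0.05 (7.04% of all genes), and DESeq2 (1.09% of all genes) called 0. *Dcn* had a log2 difference of 0.31 (SE 0.10, adjusted p = 0.211) there, and it was called only when control replicate 5 at ZT8, the control with 16.4 CPM, was left out (adjusted p = 0.0319, edgeR). Skeletal muscle markers moved in the genotype comparison at ZT20, with 3 of 8 called higher in *ChAT-BKO* libraries (*Ttn*, log2 fold change 2.12, adjusted p = 0.0256; *Tnnt3* 2.40, 0.0423; *Acta1* 2.20, 0.0495, edgeR). Of all 21738 genes tested, 41 were called higher there. All 8 muscle markers were higher with an unadjusted p under 0.05, which 6.28% of all genes had in either direction. With 1 library left out, *Ttn* and *Tnnt3* stayed called in 5 of 12 fits each and *Acta1* in 3 of 12. The summed level of the 8 muscle markers was 8.08 CPM (4.94 to 22.0) in controls and 56.4 CPM (3.53 to 77.3) in *ChAT-BKO* libraries. Over the 24 libraries, with condition means removed, the muscle gene *Ckm* had r = 0.121 with *Dcn* (adjusted permutation p = 0.622). The part of the summed muscle level in the *Dcn* value was not tested.

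**Figure D4:**
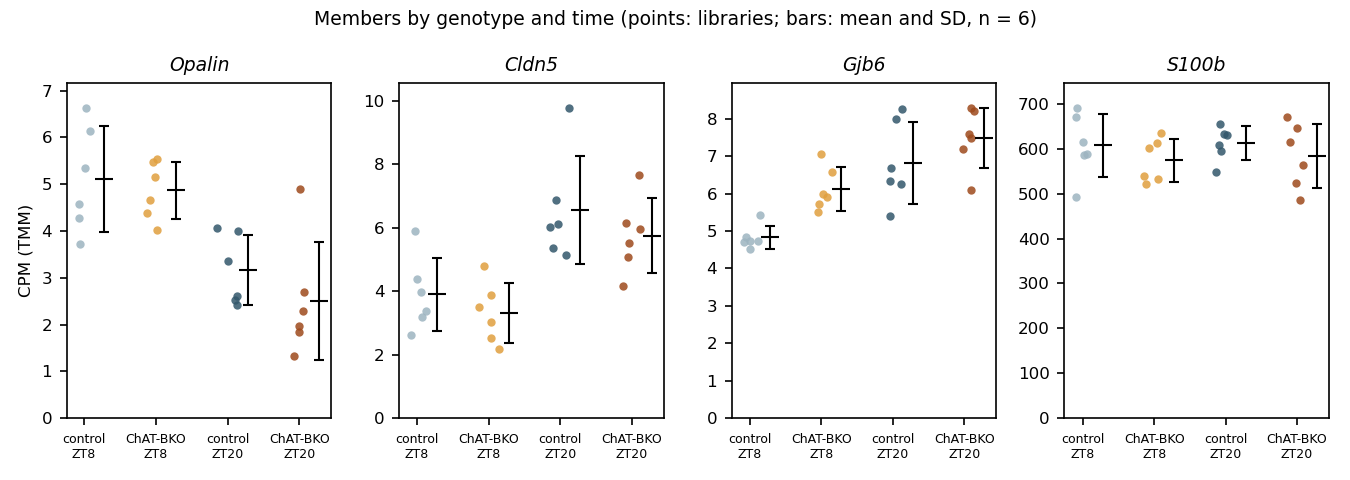
TMM-scaled CPM (vertical axes, each starting at 0) of *Opalin*, *Cldn5*, *Gjb6*, and *S100b* by genotype and time, with 1 point per library and the mean with SD beside them (n = 6). *S100b* overlaps in all 4 conditions, whereas *Opalin* is lower and *Cldn5* and *Gjb6* are higher at ZT20 than at ZT8 in both genotypes by median.

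Time of day was compared within each genotype, with different mice at each time. In controls, 0 of 37 members were called at ZT20 over ZT8 by edgeR (0.115% of all genes), and 5 had an unadjusted p under 0.05, as 8.25% of all genes did. In *ChAT-BKO* libraries, 0 of 37 were called (0.285% of all genes), and 4 had an unadjusted p under 0.05, as 9.42% of all genes did. DESeq2 called *Opalin* and *Cldn5* in both genotypes, where it called 0.584% of all genes in controls and 1.04% in *ChAT-BKO* libraries. No member had groups without overlap in either genotype (0.934% and 1.22% of all genes). The members' median log2 difference was 0.07 in controls, with 26 of 37 higher at ZT20, and 0.09 in *ChAT-BKO* libraries, with 28 of 37 higher, while the median over all genes was 0.00 in both. Without control replicate 1 at ZT8 the first was 0.02 with 23 of 37 higher, and without *ChAT-BKO* replicate 2 at ZT20 the second was 0.04 with 21 of 37 higher.

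With both genotypes joined in a model with genotype as a term, a comparison chosen after the data were seen, 3 of 37 members were called at ZT20 over ZT8 by edgeR (2.69% of all genes) and the same 3 by DESeq2 (4.44% of all genes). *Cldn5* and *Gjb6* rose (1.69% of all genes were called higher), and *Opalin* fell (1% of all genes were called lower). The ZT20 and ZT8 libraries were without overlap for 0 members and for 0.124% of all genes. The 3 calls came from 3 cell classes, and 7 of 37 members had an unadjusted p under 0.05, as 14.1% of all genes did. Each of the 3 was called in all 30 alternative fits, 24 of which left out 1 library.

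*Opalin*, a transmembrane protein of the inner loops and paranodes of myelin, was lower in the dark. Over the 12 libraries of each time it ran from 3.72 to 6.63 CPM at ZT8 (median 4.90) and from 1.33 to 4.89 CPM at ZT20 (median 2.57). All 12 ZT20 libraries were below the ZT8 median and 9 were below the whole ZT8 range. In controls the medians were 4.96 CPM (3.72 to 6.63) at ZT8 and 2.99 CPM (2.42 to 4.07) at ZT20. In *ChAT-BKO* libraries they were 4.90 CPM (4.03 to 5.53) and 2.13 CPM (1.33 to 4.89), and the library at 4.89 CPM was replicate 2. The log2 fold change over both genotypes was -0.82 (SE 0.14, adjusted p = 0.000866, edgeR), or 0.565 times the ZT8 level. Within controls *Opalin* differed by -0.71 (SE 0.17, adjusted p = 0.182), and within *ChAT-BKO* libraries by -0.96 (SE 0.22, adjusted p = 0.0742, edgeR). The latter became -1.22 with an adjusted p of 0.00565 from edgeR without *ChAT-BKO* replicate 2 at ZT20. In the other direction, the adjusted p from edgeR rose to 0.193 without *ChAT-BKO* replicate 3 at ZT8. In controls it rose to 0.401 without control replicate 4 at ZT8. The other myelin genes among the members were not called, and *Mbp* had a log2 difference of 0.08 (SE 0.06) and *Mobp* of 0.11 (SE 0.05) over both genotypes. Of the 10 oligodendrocyte lineage members, 6 were higher and 4, *Opalin* among them, were lower at ZT20 in that comparison. For *Mog* and *Cnp*, 5 of 6 *ChAT-BKO* libraries at ZT20 were below all those at ZT8, and replicate 2 was above them. In controls 0 of 6 ZT20 libraries were below the ZT8 range for either gene. In *ChAT-BKO* libraries the other lineage members, *Opalin* apart, had fewer ZT20 libraries below that range. There were 0 for *Mbp*, *Mag*, and *Mobp*, 1 for *Cldn11* and *Olig1*, 2 for *Olig2*, and 3 for *Pdgfra*. The share of all genes with 5 of 6 libraries below was not computed.

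*Cldn5*, the main claudin of the endothelial barrier, was higher in the dark. It ran from 2.19 to 5.90 CPM at ZT8 (median 3.44) and from 4.18 to 9.78 CPM at ZT20 (median 5.98), with all 12 ZT20 libraries above the ZT8 median and 7 above the whole ZT8 range. Its medians were 3.68 CPM (2.63 to 5.90) and 6.07 CPM (5.13 to 9.78) in controls, and 3.27 CPM (2.19 to 4.78) and 5.73 CPM (4.18 to 7.67) in *ChAT-BKO* libraries. The log2 fold change was 0.73 over both genotypes (SE 0.13, adjusted p = 0.00167, edgeR), a 1.65-fold rise. It was 0.71 in controls (SE 0.19, adjusted p = 0.239) and 0.75 in *ChAT-BKO* libraries (SE 0.18, adjusted p = 0.0987, edgeR). The other endothelial members were not called, with *Flt1* at 0.34 (SE 0.13) and *Cdh5* at 0.50 (SE 0.26). Of the 8 endothelial and vascular members, 6 were higher and 2 lower at ZT20, with a median of 0.17 and a lowest of -0.13. *Tek* had medians of 0.551 CPM at ZT8 and 0.566 CPM at ZT20 in controls, and of 0.667 and 0.615 CPM in *ChAT-BKO* libraries. Of 12 further endothelial markers 0 were called (2.69% of all genes), though 12 of 12 had a positive difference with a median of 0.23. By condition *Flt1* was at 3.05 CPM (2.05 to 5.01) and 4.16 CPM (3.14 to 5.13) in controls and at 3.09 CPM (2.19 to 4.33) and 3.60 CPM (3.07 to 5.01) in *ChAT-BKO* libraries, ZT8 first, with overlapping ranges. *Cdh5* was at 0.580 CPM (0.442 to 0.666) and 0.971 CPM (0.380 to 1.32), and at 0.647 CPM (0.435 to 1.05) and 0.728 CPM (0.392 to 1.85). *Lum* was at 1.16 CPM (0.589 to 1.90) and 0.989 CPM (0.733 to 1.60), and at 0.769 CPM (0.488 to 1.09) and 0.828 CPM (0.384 to 1.18). All ranges of these genes overlapped between times.

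Red blood cell transcripts moved in the same comparison. Of 5 listed, 4 were called higher at ZT20 over both genotypes by edgeR, beside 1.69% of all genes. They were the hemoglobin genes *Hba-a1* (log2 difference 0.71, adjusted p = 0.00357, edgeR), *Hba-a2*, *Hbb-bs*, and *Hbb-bt*, while *Alas2* at 0.12 was not called. Hemoglobin genes come in near-identical pairs whose reads can be split between copies, so the single values are uncertain. The summed level of the 5 was 189 CPM (159 to 399.9) in controls and 240.0 CPM (162 to 289) in *ChAT-BKO* libraries at ZT8, and 355 CPM (209 to 611) and 370.1 CPM (257 to 412) at ZT20. Its part in the *Cldn5* value was not tested. In the same comparison 3 of 12 further oligodendrocyte lineage genes were called, all higher, beside 1.69% of all genes. They were *Gpr17* (0.93, adjusted p = 0.0221), *Ermn* (0.43, adjusted p = 0.0185), and *Gjc3* (0.35, adjusted p = 0.0341, edgeR). Of the further astrocyte (12), microglial (12), mural (8), and fibroblast (8) markers, 0 were called, beside 2.69% of all genes in either direction. Their median log2 differences were 0.07 (10 of 12 higher), 0.05 (8 of 12), 0.15 (5 of 8), and 0.43 (7 of 8). Among 6 Schwann cell markers 1 was called higher, beside 1.69% of all genes, and 4 of 6 were higher, with a median of 0.38.

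*Gjb6* rose by a smaller fold. It ran from 4.53 to 7.06 CPM at ZT8 (median 5.46) and from 5.40 to 8.29 CPM at ZT20 (median 7.34), with 11 of 12 ZT20 libraries above the ZT8 median and 7 above the whole ZT8 range. The log2 fold change was 0.39 over both genotypes (SE 0.08, adjusted p = 0.00472, edgeR), a 1.31-fold rise. It was 0.49 in controls (SE 0.12, adjusted p = 0.195) and 0.29 in *ChAT-BKO* libraries (SE 0.12, adjusted p = 0.427, edgeR). *Gja1*, the other connexin among the members, had a log2 difference of 0.20 (SE 0.11) and was not called.

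**Figure D5:**
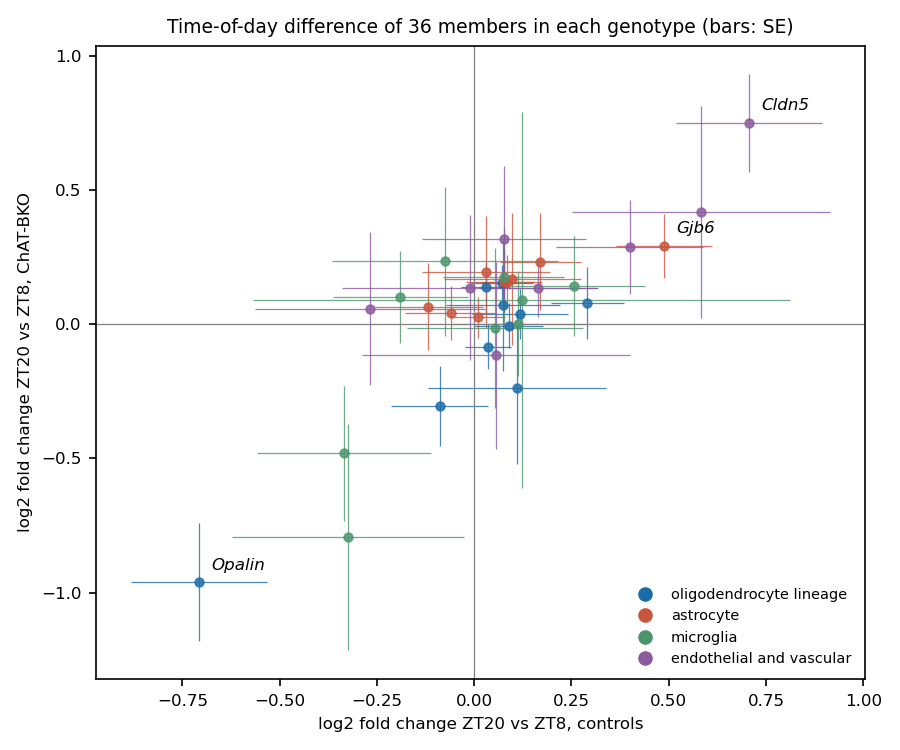
Log2 fold change of ZT20 over ZT8 in controls (horizontal axis) and in *ChAT-BKO* libraries (vertical axis) for 36 members (without *Aldoart1*), with SE bars and 1 point per gene, coloured by class. The genotypes share no libraries, and *Opalin* (-0.71 and -0.96) and *Cldn5* (0.71 and 0.75) lie at opposite ends of the plot.

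A difference in the time effect between genotypes was not found for these genes. The interaction was -0.25 (SE 0.29) for *Opalin*, 0.04 (SE 0.27) for *Cldn5*, and -0.19 (SE 0.16) for *Gjb6*, each with an adjusted p of 1.00 from edgeR, and these SEs leave room for sizable differences. *S100b* had time differences of 0.01 (SE 0.07) in controls and 0.03 (SE 0.08) in *ChAT-BKO* libraries.

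The start regions of these 3 genes are given because they are the members called with time of day. Windows were from the RefSeq promoters on GRCm38.p6, in which 24 of 37 members had an entry, and cover the 250 bases before the annotated start, 5′ to 3′ on the strand of the gene. Capitals mark CANNTG, the core of the E-box that clock proteins and many other factors can bind.
Opalin (chr19:41077114-41077363, minus strand): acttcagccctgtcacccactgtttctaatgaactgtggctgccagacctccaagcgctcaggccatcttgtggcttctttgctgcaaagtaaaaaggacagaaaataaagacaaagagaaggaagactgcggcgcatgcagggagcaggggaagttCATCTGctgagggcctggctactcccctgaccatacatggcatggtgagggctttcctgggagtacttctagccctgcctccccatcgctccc
Cldn5 (chr16:18776597-18776846, plus strand): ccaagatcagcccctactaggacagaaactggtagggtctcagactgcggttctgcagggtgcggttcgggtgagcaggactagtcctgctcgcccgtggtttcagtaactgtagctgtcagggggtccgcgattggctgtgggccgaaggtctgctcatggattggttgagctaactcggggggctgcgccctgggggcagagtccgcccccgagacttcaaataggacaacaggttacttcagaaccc
Gjb6 (chr14:57133612-57133861, minus strand): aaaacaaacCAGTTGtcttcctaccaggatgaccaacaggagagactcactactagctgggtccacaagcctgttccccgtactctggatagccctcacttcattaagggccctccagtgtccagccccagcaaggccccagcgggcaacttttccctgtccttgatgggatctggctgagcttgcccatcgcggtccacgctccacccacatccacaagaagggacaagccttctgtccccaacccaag
On either strand, *Opalin* and *Gjb6* held 1 CANNTG each (CATCTG and CAGTTG) and *Cldn5* held 0, while 66.2% of 32851 windows of the same length held at least 1. The E-box CACGTG, which is itself a CANNTG, was found in 0 of the 3 windows (6.02% of all windows). The same held for AGGTCA, the half-site of REV-ERB and ROR receptors (14.0%), and for the D-box TTATGTAA (0.819%). Such matches describe the letters of these windows and say nothing of binding. *Opalin* spans chr19:41061710-41077113 on the minus strand, *Cldn5* chr16:18776847-18778262 on the plus strand, and *Gjb6* chr14:57123303-57133611 on the minus strand of GRCm38.

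Whether glial and vascular transcripts varied together from library to library was asked with 1 gene per class. Medians over the 24 libraries were 945 CPM for *Mbp*, 90.8 CPM for *Slc1a2*, 4.13 CPM for *Csf1r*, and 3.47 CPM for *Flt1*, so counting error weighs more on the last 2. After removal of the condition means from log2 CPM, *Mbp* and *Slc1a2* were correlated over 24 libraries (Pearson's r = 0.738, adjusted permutation p = 0.0006; Spearman's rho = 0.706, adjusted p = 0.00138). The value was 0.606 without the 2 libraries farthest from the median, 0.499 in controls and 0.822 in *ChAT-BKO* libraries. *Slc1a2* also went with *Csf1r* (r = 0.646, adjusted permutation p = 0.00384; rho = 0.585, adjusted p = 0.0126; 0.593 without 2 libraries; 0.628 in controls and 0.701 in *ChAT-BKO* libraries). With *Flt1* it had r = 0.588 (adjusted permutation p = 0.0108; rho = 0.732, adjusted p = 0.00138; 0.581 without 2 libraries; 0.553 in controls and 0.672 in *ChAT-BKO* libraries). The paired values also share the depth and scaling of each library.

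The remaining pairs were weaker. *Csf1r* and *Flt1* had r = 0.478 (adjusted permutation p = 0.0479; rho = 0.471, adjusted p = 0.0498), which dropped to 0.380 without 2 libraries. *Mbp* had r = 0.388 with *Csf1r* (adjusted permutation p = 0.106; rho = 0.330, adjusted p = 0.151) and r = 0.329 with *Flt1* (adjusted permutation p = 0.157; rho = 0.472, adjusted p = 0.0498). By genotype, r of *Mbp* with *Flt1* was 0.043 in controls and 0.563 in *ChAT-BKO* libraries. With *Csf1r* it was 0.316 and 0.458. With *Chat*, the gene of the targeted cells, r was 0.401 for *Mbp* (adjusted permutation p = 0.104), 0.253 for *Slc1a2* (0.279), 0.474 for *Csf1r* (0.0479; rho = 0.422, adjusted p = 0.0709), and -0.02 for *Flt1* (0.922). In controls and *ChAT-BKO* libraries these were 0.340 and 0.473 for *Mbp*, and -0.178 and 0.555 for *Slc1a2*. For *Csf1r* they were 0.314 and 0.663, and for *Flt1* -0.220 and 0.242. *Chat* itself had medians of 82.4 CPM (52.0 to 145) and 87.9 CPM (65.3 to 109) at ZT8 and 87.3 CPM (62.6 to 101) and 89.9 CPM (51.0 to 129) at ZT20, controls first. The muscle gene *Ckm* had r = 0.121 with *Dcn* (adjusted permutation p = 0.622) and 0.357 with *Flt1* (adjusted permutation p = 0.129). With *Flt1* the value was 0.710 in controls, -0.002 in *ChAT-BKO* libraries, and 0.191 without 2 libraries. With *Dcn* it was 0.073 in controls and 0.210 in *ChAT-BKO* libraries. In all, 12 relations were computed, and the adjusted values are over these 12, two-sided, with 100000 permutations.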

How the data were processed

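RNA from 24 HA immunoprecipitates and 1 pooled input was analysed. The authors aligned reads with STAR (2.7.5) to mm10 and estimated counts with RSEM, and the deposited table holds these expected counts per gene and library, not normalized. They are not whole for 6.1% of values and were rounded here. DESeq2 (1.32.0) was used by the authors for their own comparisons, which were not used here. Library totals ran from 4.04 to 31.7 M counts, so that genes with few counts, such as *Aif1* and *P2ry12*, carry wide counting error. Intervals and floors cover counting error only. Each library is labelled as a separate biological replicate.

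Ratios to the input used CPM on total counts with a prior of 0.5 counts. Conditions were compared with edgeR (4.0.16, R 4.3.3), using TMM, quasi-likelihood tests and Benjamini-Hochberg adjustment over the 21738 genes whose IP counts summed to 10 or more, with only the libraries of the groups compared in each fit. The test was checked on simulated data. Alternatives were DESeq2 (1.42.0), its size factors, other filters, a replicate block, all 24 libraries in 1 fit, a term for the length slope, and leaving out each library. The length slope was that of each IP library's log2 CPM, less the gene's mean over the IP libraries, on log2 transcript length. Correlations used permutation tests (scipy 1.17.1).

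The members, marker lists, and tests were chosen with earlier results of these data known. Values by condition are given, for each class, for the 2 members with the most input counts, those with the highest and lowest median ratio, and every member called in any comparison. Beyond the members, checks of the targeted cells and gene are given, and in other lists genes that were called or at the ends of the list. *Mbp*, *Aqp4*, *Csf1r*, and *Pdgfrb* are given without sequence.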

Additional observations from a re-analysis of the deposited data

Results flagged for a closer look

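In 160 groups of 6 libraries, 9 held a library whose distance to its neighbour exceeded the critical value for an outlier, where about 1 in 20 is flagged by chance, or 8 groups. All values are TMM-scaled CPM. *Cnp*, a myelin enzyme, was highest in replicate 2 at ZT20 in both genotypes, at 101 CPM in controls (next 89.4) and 119 CPM in *ChAT-BKO* libraries (next 87.7). *Olig1* was at 31.6 CPM in control replicate 2 at ZT8 (next 22.0). *Aqp4* was at 8.64 CPM in *ChAT-BKO* replicate 2 at ZT8 (next 5.05), and *P2ry12* was at 0.734 CPM in the same library (next 0.261). *Gjb6* was at 5.43 CPM in control replicate 6 at ZT8 (next 4.84). *Aif1* was lowest in control replicate 5 at ZT8 at 0.292 CPM (next 0.952) and highest in *ChAT-BKO* replicate 5 at ZT20 at 2.30 CPM (next 0.569). *Pdgfrb* was at 2.96 CPM in *ChAT-BKO* replicate 4 at ZT8 (next 2.00). Differences between these libraries in cell makeup or handling were not tested.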

How the results depend on the processing

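The class medians of the log2 ratio kept their direction in all alternatives run. With TMM over the input and IP libraries they were -3.31 for the oligodendrocyte lineage, -3.45 for astrocytes, -3.49 for microglia, and -3.04 for vascular genes, and the summed levels left were 11.3%, 25.6%, 8.50%, and 15.5% of the input. As a median over members instead of a sum, astrocytes were at 6.19% and vascular genes at 8.23%, and astrocytes without *S100b* at 5.43%. Without *Pdgfrb*, *Dcn*, and *Lum* the vascular median ratio was -3.97.

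For ZT20 over ZT8 in controls, members called went from 0 to 2 with DESeq2, 2 with the replicate block (*Opalin* and *Cldn5*), and 3 with the length slope. In *ChAT-BKO* libraries they went from 0 to 2 with DESeq2, 1 with the replicate block (*Opalin*), 1 with all 24 libraries in the fit, and 2 with the length slope. Leaving out 1 library gave 0 to 1 members there (*Opalin*, without replicate 2 at ZT20) and 0 to 1 for genotype over both times (*Dcn*, without control replicate 5 at ZT8). Over all genes, same-numbered libraries showed little shared deviation (r from -0.08 to 0.16, and at most 2 of 6 correlated best with their own number), and the numbers were not taken to pair the samples. For the members, libraries numbered 2 were highest in all 4 conditions for 6 of 37 genes, against 0.198% of all genes. Over all genes, DESeq2 called more than edgeR, with 48 higher and 22 lower against 28 and 12 for genotype at ZT8, 78 and 13 against 41 and 9 at ZT20, 73 and 54 against 21 and 4 for time in controls, 140 and 85 against 50 and 12 in *ChAT-BKO* libraries, and 509 and 457 against 367 and 218 for time over both genotypes. The length slope gave 119 and 58, 124 and 45, 193 and 152, 295 and 204, and 782 and 732 in that order. The cause of these differences was not tested. Depth limits the members with few input counts, *Aldoart1* (1), *Aif1* (18), and *Lum* (31), and all ratios rest on 1 input library.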
